A study of Mus with 6 samples.

Results

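The RNAs described here carry RIKEN clone names that begin with 4921, 4922, 4930, 4931, 4932 or 4933 and end in Rik. The table of named RNAs, one of lncRNA genes, held 2282 names, and 338 of them were members by this rule. Shares over all names are shares of that table alone. The rule left out 3 further names of the same series, 4930509G22Rik, 4930546C10Rik and 4930594M22Rik. By prefix, 248 members began with 4930, 63 with 4933, 12 with 4921, 8 with 4932, 6 with 4931 and 1 with 4922. The prefixes select by name and by no measured value. Why the 3 names were left out is not stated, and the members were chosen with earlier results of these data known.

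RNA came from the substantia nigra pars compacta of the right side, where the dopaminergic neurons that degenerate in Parkinson's disease lie. All mice overexpressed human α-synuclein carrying the A53T substitution. The 3 model samples came from mice injected intraperitoneally with 0.9% saline each day for 30 days, and the 3 AVE0991 samples from mice given AVE0991 at 10 mg/kg on the same schedule. The drug AVE0991 activates Mas, to which the peptide angiotensin-(1-7) binds, and is itself not a peptide. Mice without the transgene were not analysed here, and the labels name no promoter, strain, age or sex. Whether each sample came from its own animal is also not stated. The p-values then measure only how these samples spread, which may be technical variation.

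RIKEN clone names record the cDNA library in which a mouse transcript was found, and these prefixes belong to libraries of adult testis. Testis is known for transcribing an unusually large part of the genome, and many such transcripts are long non-coding RNAs (lncRNAs) with no assigned function. A clone name therefore says where an RNA was cloned and not where else it is made. In the RefSeq annotation (GRCm38.p6), 325 members were listed as lncRNA, 6 as transcribed pseudogenes and 5 as protein-coding, and 2 were not matched. No sequences of the members were used here. Of 37 marker genes looked up for the cell types of the midbrain and for germ cells, the named table held 2, the neuronal lncRNAs Meg3 and Miat. RefSeq lists 1801 of the 2282 names in that table as lncRNA. Absence of a protein-coding marker from it therefore says nothing about expression. None of the 10 dopaminergic markers was among the names, so the tissue label was not checked with them.

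The count tables by identifier held 37036986 to 52029003 counts per sample. No file paired those identifiers with names, so members were read from the deposited named table, which gives a mean per group, a test statistic and its degrees of freedom. These fixed 1 set of whole counts per library for all 332 members with a statistic. The other 6 members were at 0 in every library. The recovered libraries of either group are labelled a, b and c. They held 1694699 to 2299740 counts over all names and carry no replicate number. A normalized count is a count divided by the library factor, with no division by transcript length, so levels of different RNAs are not levels per length. Low counts clustered at 4 and 8. Among the members' library values, 71 were 4, against 25 at 3 and 22 at 5, and 35 were 8, against 18 at 7 and 14 at 9. How many independent fragments stand behind a count is not known, and neither is the counting precision. Model library c lay closer to the AVE0991 libraries than did model libraries a and b. It was the nearest of the 3 model libraries to the AVE0991 mean for 125 of 254 tested members and 51.9% of all tested names. Results that rest on it are given with and without it.

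Most of these testis-cloned RNAs were detected in substantia nigra, and a smaller number at a substantial level. A mean normalized count of at least 10 in either group was reached by 258 of the 338 members (76.3%), and one of at least 100 by 151 members (44.7%). Over all 2282 names the same minimums were reached by 84.1% and 56.9%. The 196 names of the 1700 series, also cloned from testis, gave 77.6% and 43.4%. The 205 names of RIKEN clones that begin with a letter gave 93.2% and 70.7%. These shares were compared as a description and not tested. When both groups had to reach the minimum, 234 members remained at 10 and 139 at 100. A mean of 1000 was reached by 43 members and one of 10000 by 2. Within single libraries, 282 to 296 members had any count, 238 to 252 reached 10 and 142 to 152 reached 100. The number reaching 100 was 142 to 145 in the model libraries and 146 to 152 in the AVE0991 libraries. Together the members held 6.89% to 7.89% of the normalized counts of all names with recovered counts.

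**Figure D1:**
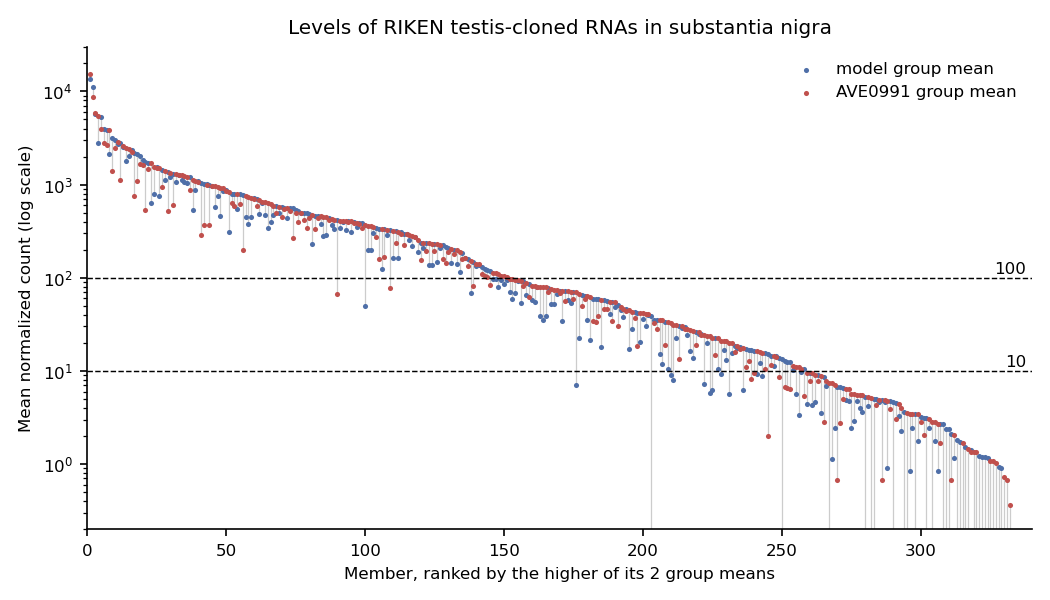
Mean normalized count (log scale) of each member in the model group (blue) and the AVE0991 group (red), ranked by the higher of the 2 means; grey lines join the 2 means of a member, dashed lines mark 10 and 100, and means below the axis are not drawn. A total of 151 members lie above the upper line, and 258 above the lower.

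At the edge of the lower minimum, 4930425O10Rik (10.5 with AVE0991 and 9.67 in the model) and 4930559C10Rik (5.39 and 10.4) lay just inside. Just outside lay 4930417O22Rik (7.77 and 9.58) and 4930455B14Rik (9.58 and 4.44). At the upper minimum, 4930404H11Rik (101 with AVE0991 and 95.3 in the model) and 4930406D18Rik (103 and 84.8) lay just inside, and 4930461G14Rik (98.0 and 69.9) and 4930568G15Rik (96.7 and 58.8) just outside. The libraries of the groups overlapped for each of these 8 except 4930461G14Rik, which was not called (edgeR adjusted p = 0.183). Counts were present in all 6 libraries for 244 members and in 1 library alone for 22. At the low end, 20 members had counts in the model and none with AVE0991, and 14 the reverse. The matching shares over all names were not worked out, so these numbers are not read as a trait of the members. Of these 34, only 4930500L23Rik entered the test, and the others did not pass the filter on low counts.

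The highest counts belonged to 4933431E20Rik, a lncRNA that overlaps Gstm5, a glutathione S-transferase gene, and Eps8l3 in RefSeq. Its normalized counts were 11389, 12906 and 16129 in the model (libraries a, b and c, the order used throughout) and 16492, 15054 and 14134 with AVE0991. The groups overlapped, because model library c lay among the treated libraries (log2 fold change 0.24 ± 0.15 SE, adjusted p = 0.334, by edgeR's quasi-likelihood test, Benjamini-Hochberg adjusted over all tested names). Without model library c the log2 fold change was 0.37 and the adjusted p 0.0439 in the same edgeR test. This RNA held 7.68% to 11.7% of the members' counts per library.

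Next came 4930572O13Rik, which lies between the ribosomal protein gene Rps24 and Zmiz1. It had 11687, 11331 and 10773 normalized counts in the model and 7878, 8958 and 9376 with AVE0991. Every treated library was below every model library, but the difference did not pass (log2 fold change -0.29 ± 0.13 SE, edgeR adjusted p = 0.179). For 4930405O22Rik, which overlaps the F-box gene Fbxl17, the values were 6114, 5167 and 5789 in the model and 5521, 5773 and 6156 with AVE0991, and the groups overlapped (adjusted p = 0.664, edgeR). For 4930570G19Rik, beside the neuronal adhesion gene Negr1, they were 5260, 4711 and 5789 against 3365, 3283 and 5336, with AVE0991 library c inside the model range (adjusted p = 0.375, edgeR). Among the 8 highest, 4933412O06Rik, 4930519K11Rik and 4921504A21Rik passed the test and are described below with the changed members.

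Members that overlap a protein-coding gene were the more often detected. RefSeq placed 106 of 336 matched members (31.5%) over a protein-coding gene, against 40% of the other names. Of these 106, 65.1% reached 100, against 35.7% of the 230 members that lie between coding genes. The sources used here do not say whether counting used strand. Reads from a member and from the gene it overlaps can therefore not be told apart, and the part of the host genes' transcripts in these levels was not tested.

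The comparison asked which of these RNAs changed with the drug. Among the members, 19 were higher and 17 were lower with AVE0991, and the shares in each direction were close to those of the whole table. In all, 36 of 254 tested members passed an adjusted p under 0.05 in the edgeR test, where 15.4% of all 1866 tested names passed. By direction, 7.56% of all tested names were higher and 7.88% lower. The filter on low counts was passed by 254 members, and the other 84 were not tested. The median log2 fold change of the tested members was 0.14, with 159 above 0 and 95 below, against a median of 0.00 over all tested names. For the 148 tested names of the 1700 series it was 0.16, with 10 higher and 6 lower. An unadjusted p under 0.05 was reached by 74 of the 254 members, where 30.7% of all tested names reached it. A change of at least 2-fold was shown by 25 of the 36, 12 higher and 13 lower, and over all tested names 9.7% passed with such a change (4.5% higher and 5.2% lower).

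The share that passed was larger at higher levels. Of the 43 members with a mean of at least 1000 in either group, 16 passed (37.2%), against 28.5% of all tested names at that level. From 100 to below 1000, 18 of 108 members passed (16.7%), against 16.6% of all tested names. From 10 to below 100, 2 of 102 passed (1.96%), against 4.03%. Among the 151 members that reached 100, the libraries of the 2 groups did not overlap for 67, 34 higher and 33 lower with AVE0991. Over all names at that level 46.5% did not overlap, 18.7% higher and 27.9% lower. None of the 36 members that passed had overlapping libraries. With 3 libraries per group the test itself favours separated groups, so this is not separate support for the calls. The matching share over all names that passed was not worked out. Of the 36, 34 reached 100, and 4930500L23Rik and 4930525C09Rik did not.

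**Figure D2:**
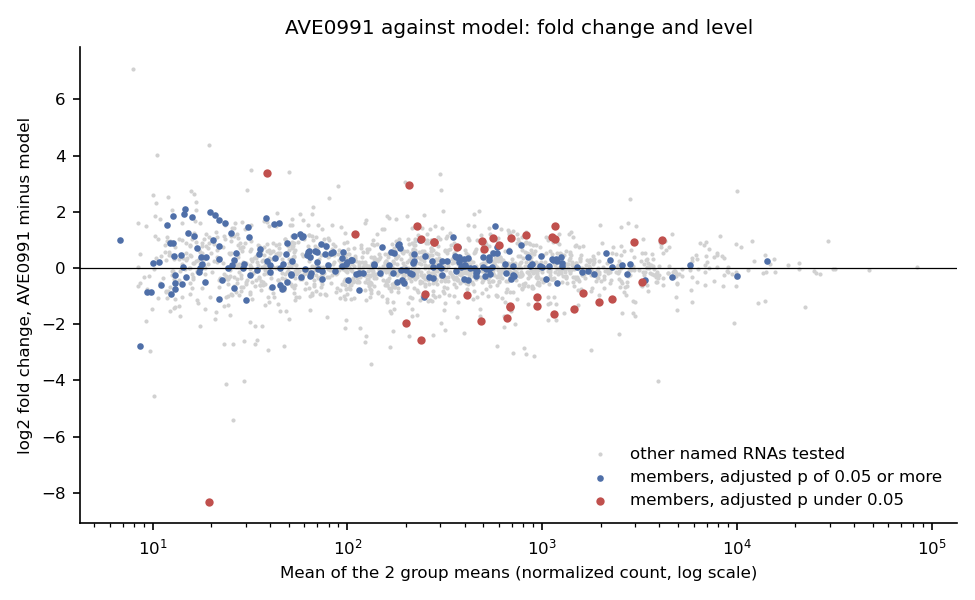
log2 fold change (AVE0991 minus model, edgeR) against the mean of the 2 group means (normalized count, log scale) for the 254 tested members, in red where the adjusted p was under 0.05 and in blue otherwise, over the other tested names in grey. The 36 red points lie on both sides of 0 and mostly above a level of 100; the lowest point is 4930500L23Rik, which had no counts with AVE0991.

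Of the 17 members that fell, 4933429O19Rik, between Otx2, a homeobox gene of forebrain and midbrain development, and Exoc5, had the smallest p of the members. Its normalized counts were 1024, 1126 and 939.8 in the model and 274, 348 and 235 with AVE0991, and every treated library was far below the lowest model library. The log2 fold change was -1.78 ± 0.19 (SE) with an adjusted p of 0.00105 (edgeR), and it stayed at or below 0.00828 with any library left out. 4933406G16Rik lies between Meis1, the gene of a Hox cofactor, and Spred2. It had 965, 865 and 495 against 112, 204 and 276, a log2 fold change of -1.89 ± 0.37 (adjusted p = 0.0141, edgeR). That call was lost when either model library a or model library b was omitted (adjusted p = 0.0545 and 0.0519, edgeR).

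4930500L23Rik, the neighbour of the homeobox gene Uncx, was the only tested member at 0 throughout a group. It had 42.4, 38.5 and 36.0 normalized counts in the model libraries and none in any AVE0991 library (adjusted p = 0.00522, edgeR). Against a floor of 3 counts over the 3 treated libraries, its level was 37.7-fold lower. That figure takes each count as an independent fragment, which is not known, so it is not a firm lower bound. Its fitted log2 fold change has no firm size.

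Among the 17 members that fell, 7 overlap a protein-coding gene. 4930447F24Rik overlaps Bsn, which encodes the presynaptic scaffold Bassoon. It fell from 2222, 1864 and 1189 to 399, 589.7 and 606, and model library c was the lowest of the model libraries (log2 fold change -1.65 ± 0.27 SE, adjusted p = 0.00646, edgeR). 4930449E18Rik overlaps Ablim1, an actin-binding LIM protein gene. Its values were 2583, 2195 and 1744 in the model and 772, 818 and 679 with AVE0991, with no overlap (log2 fold change -1.45 ± 0.17, adjusted p = 0.00169, edgeR). 4932413F04Rik, within the region of Tmem108, had 3727, 3144 and 2636 against 1202, 1548 and 1418, a change of -1.12 ± 0.17 on the log2 scale (adjusted p = 0.00522, edgeR). In these 3 RNAs, in the order given, the SD was 524, 420 and 546 in the model and 115, 71.1 and 174 with AVE0991. The model means were also higher, and the spread relative to the mean was not compared.

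4921504A21Rik overlaps Magi2, a synaptic scaffold gene, and showed a small fall at a high level, from 3876, 4269 and 3523 to 2713, 2558 and 2627 (log2 fold change -0.49 ± 0.13, adjusted p = 0.0338, edgeR). Its call was lost without AVE0991 library a, b or c (adjusted p = 0.0902, 0.118 and 0.0792, edgeR). It was also lost when model library a (0.109) or model library b (0.127) was omitted, and with library totals as the scaling (0.0576). 4933431G14Rik overlaps St3gal5, the gene of the sialyltransferase that makes ganglioside GM3. It fell by 1.03 ± 0.20 on the log2 scale (adjusted p = 0.0130, edgeR, with 0.0554 when model library a was omitted and 0.0519 when model library b was).

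The remaining falls named by the rule lie between coding genes. 4930513D17Rik, between Clnk and Hs3st1, had 3331, 2969 and 2030 in the model and 1208, 1129 and 1053 with AVE0991 (log2 fold change -1.23 ± 0.19, adjusted p = 0.00522, edgeR). 4930440I19Rik, next to the splicing factor gene Cwc22, had 1108, 1010.4 and 850.2 against 288, 459 and 370.3 (-1.34 ± 0.21, adjusted p = 0.00592, edgeR). 4930455G09Rik, between Fhad1 and Tmem51, had 342, 376 and 247 against 115, 53.1 and 66.2 (-1.97 ± 0.31, adjusted p = 0.00592, edgeR). For each of these the 2 groups were separated by a wide gap, and each call held with any library left out. 4930407I19Rik, between Ctnna3 and Reep3, had a log2 fold change of -1.34 ± 0.25 (adjusted p = 0.0130, edgeR, and 0.0507 and 0.0533 without AVE0991 library c or model library b). 4930553E22Rik had a larger but less certain one of -2.55 ± 0.60, from 454, 477 and 308 to 12.1, 83.7 and 104, with AVE0991 library a far below the other treated libraries. Its adjusted p was 0.0256, and 0.0650, 0.0839 and 0.0794 without AVE0991 library b, model library a or model library b (edgeR). 4930584F24Rik, beside Dpp6, a subunit of neuronal potassium channels, had -1.38 ± 0.36 (adjusted p = 0.0343, edgeR), and the call was lost without AVE0991 library a or b or model library a or b (0.0561, 0.104, 0.114 and 0.0999). The other 2 falls, outside the naming rule, had log2 fold changes of -0.98 and -0.89.

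**Figure D3:**
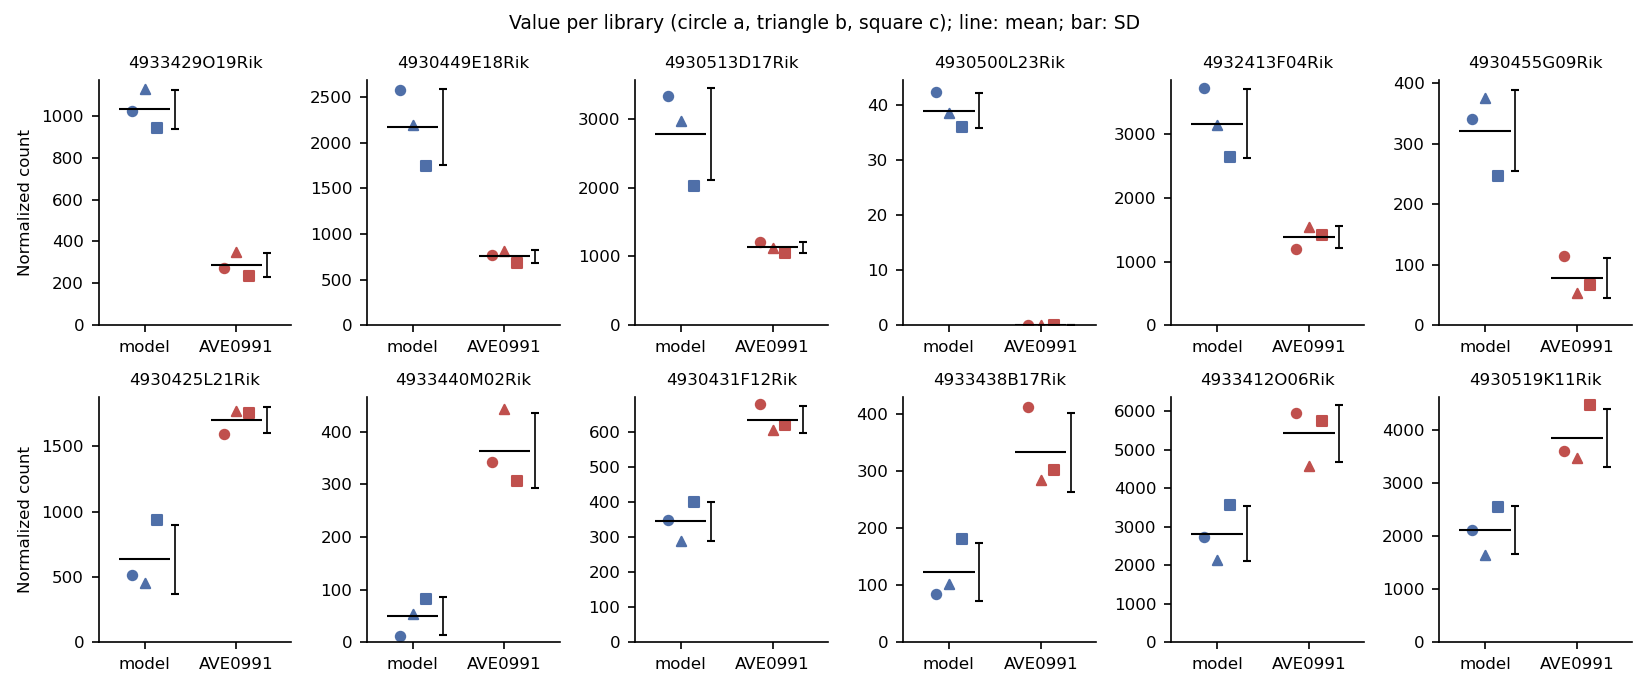
Normalized count per library (circle a, triangle b, square c) of the 6 members with the smallest p among those lower (top row) and higher (bottom row) with AVE0991; lines mark group means and bars 1 SD over 3 libraries. In each of the 12 panels the groups do not overlap, and model library c is the model library nearest the treated group.

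Among the members that rose, the largest change at a mean of at least 100 was that of 4933440M02Rik, which lies between Hs3st4, a heparan sulfate sulfotransferase gene, and another member, 4930571K23Rik. It had 11.9, 53.7 and 83.2 normalized counts in the model and 342, 444 and 306 with AVE0991. The lowest treated library was thus well above the highest model library (log2 fold change 2.94 ± 0.55, adjusted p = 0.0121, edgeR, and 0.0518 without model library b). 4930571K23Rik, which RefSeq lists as protein-coding, had 223, 126 and 583 in the model and 933, 835 and 748 with AVE0991. It did not pass (log2 fold change 1.49 ± 0.48, adjusted p = 0.0715, edgeR). Its model libraries differed 4.62-fold, and without model library c the log2 fold change was 2.30 with an adjusted p of 0.00126 (edgeR).

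4930425L21Rik, which lies between Emp1 and Grin2b, the gene of an NMDA receptor subunit, had the smallest p of the members that rose. Its normalized counts were 516, 455 and 939.8 in the model and 1590.4, 1769 and 1754 with AVE0991. The treated libraries lay close together and model library c was roughly midway (log2 fold change 1.49 ± 0.27, adjusted p = 0.0116, edgeR, and 0.0509 without model library a). 4933438B17Rik, beside Tmem132c, rose from 85.7, 103 and 181 to 413, 285 and 303 (1.502 ± 0.31, adjusted p = 0.0169, edgeR). Its call was lost without AVE0991 library a, model library a or model library b (0.0589, 0.0597 and 0.0695, edgeR).

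Of the 19 members that rose, 8 overlap a protein-coding gene. The highest level among the rises was that of 4933412O06Rik. It lies between Gli3, a transcription factor of the Hedgehog pathway, and Inhba, the gene of an activin subunit. It had 2741, 2148 and 3568 in the model and 5952, 4584 and 5743 with AVE0991, with no overlap (log2 fold change 1.01 ± 0.21, adjusted p = 0.0169, edgeR). The adjusted p was 0.0589 and 0.0627 without AVE0991 library a or c (edgeR). It was 0.0744 when model library a was omitted and 0.0603 when model library b was (edgeR). 4930519K11Rik overlaps Kcnma1, the gene of the large-conductance calcium-activated potassium channel. Its values were 2116, 1653 and 2555 in the model and 3607, 3476 and 4475 with AVE0991 (0.94 ± 0.20, adjusted p = 0.0178, edgeR, lost without AVE0991 library c or model library a or b at 0.0629, 0.0744 and 0.0696). 4930545L23Rik overlaps Plcb1, a phospholipase C gene of receptor signalling, and had 801, 538 and 901 against 1269, 1364 and 1906 (1.09 ± 0.25, adjusted p = 0.0226, edgeR, and 0.0559 to 0.0794 in the 4 fits that omit AVE0991 library b, AVE0991 library c, model library a or model library b).

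4930431F12Rik, between Ldb2, a cofactor of LIM homeodomain proteins, and Qdpr, which encodes an enzyme of tetrahydrobiopterin recycling, had 349, 288 and 398 in the model and 678, 605 and 619 with AVE0991. Its groups were tight and well apart (log2 fold change 0.95 ± 0.18, adjusted p = 0.0130, edgeR, with 0.0509 when model library a was omitted and 0.0542 when model library b was). 4921511I17Rik, which overlaps Cyria, had 0.83 ± 0.18. 4930587E11Rik, which overlaps the contactin gene Cntn3, had 0.92 ± 0.22. 4933411E08Rik, between Rap1b and Mdm1, had 1.02 ± 0.25. 4930452A19Rik, beside Qk, the gene of the RNA-binding protein quaking, had 0.75 ± 0.18, and 4930506C21Rik, which overlaps Mpc1, the gene of a mitochondrial pyruvate carrier subunit, had 0.69 ± 0.17. Adjusted p for these 5 ran from 0.0200 to 0.0312 (edgeR). Each of the 5 calls was lost in the fits that omit AVE0991 library b, AVE0991 library c, model library a and model library b, and all but that of 4921511I17Rik also without AVE0991 library a (adjusted p up to 0.116, edgeR).

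Of the members listed as protein-coding in RefSeq, 3 reached a mean of 100. 4930426D05Rik, within the region of Klhl14, passed with 66.2, 92.2 and 45.3 in the model and 127, 139.8 and 185 with AVE0991 (log2 fold change 1.22 ± 0.32, adjusted p = 0.0356, edgeR). It was lost with any of the 6 libraries left out (adjusted p from 0.0519 to 0.117, edgeR). 4930571K23Rik is described above. 4930519F16Rik, beside Cdx4 and over Nap1l2, did not differ beyond its spread, with 88.2, 106 and 91.5 against 81.6, 81.6 and 149.9 (adjusted p = 0.703, edgeR). The 6 rises outside the naming rule had log2 fold changes from 0.93 to 3.40. The highest of these, chosen here after its value was seen, was 4930525C09Rik, beside Ccer1. It had 0, 9.84 and 11.1 in the model and 53.4, 60.2 and 96.6 with AVE0991 (adjusted p = 0.0317, edgeR), and the call was lost without AVE0991 library a, b or c or model library b (0.0672, 0.0752, 0.112 and 0.0865).

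**Figure D4:**
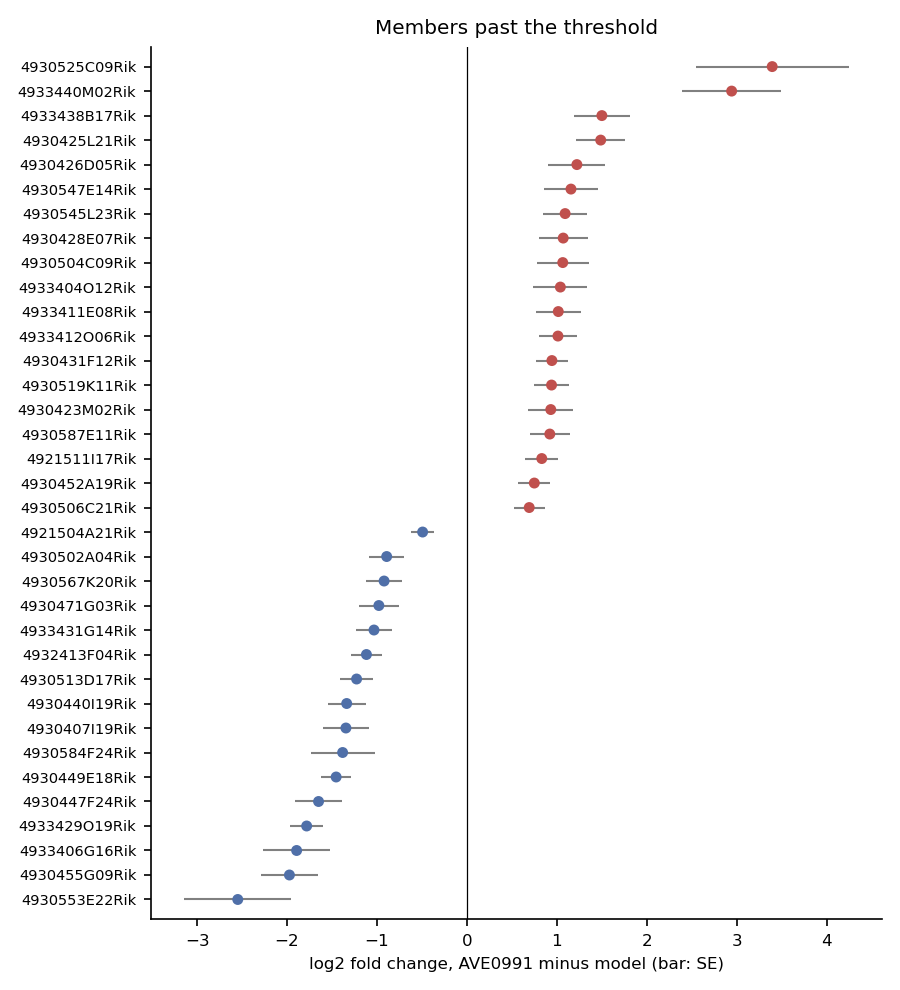
log2 fold change (AVE0991 minus model, edgeR; bars 1 SE) of 35 of the 36 members past the threshold, higher in red and lower in blue; 4930500L23Rik, at 0 in all AVE0991 libraries, is not drawn. Rises run from 0.69 to 3.40 and falls from -0.49 to -2.55.

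In the authors' deposited table, 51 of 332 members with a value had an unadjusted p under 0.05, 26 with a positive statistic (AVE0991 above model) and 25 with a negative one, and 18.8% of all 2247 names did (8.19% and 10.6% by direction). The statistic in the authors' deposited table ran from -21.0 to 7.42 over the members, with a median of 0.22, and from -21.0 to 49.99 over all names. Its degrees of freedom ran from 2 to 4 (rounded), with a median of 2.94 for members and 3.01 for all names. With 3 libraries per group, a value near 4 means that both groups spread equally and a value near 2 that nearly all of the spread lay in 1 group. The lowest statistic of the whole deposited table was that of 4930500L23Rik, -21.0 with 2 degrees of freedom, since its AVE0991 values were all 0. In the authors' deposited table, 4933429O19Rik had -11.8 with 3.33 degrees of freedom (p = 0.000789 there), and 4930431F12Rik had 7.42 with 3.596, the highest of the members.

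Several members that edgeR called had low degrees of freedom in the authors' deposited table. The authors' deposited table gave 4930513D17Rik a statistic of -4.22 with 2.05 degrees of freedom and 4930449E18Rik -5.76 with 2.11. For 4930452A19Rik the authors' deposited table gave 4.02 with 2.05. In the first pair the model group held the spread (SD 671 and 420.2, against 77.6 and 71.1 with AVE0991), and in 4930452A19Rik the AVE0991 group did (SD 72.9 against 7.91). Of the 36 members called by edgeR, 32 also had an unadjusted p under 0.05 in the authors' deposited table, and 19 members had such a p there without passing in edgeR. After Benjamini-Hochberg adjustment of the p-values in the authors' deposited table over all names, none of its members passed (smallest adjusted value 0.212).

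The 5 smallest p of the authors' deposited table among members that edgeR did not call were those of 4930578N18Rik, 4930593A02Rik, 4930572O13Rik, 4931419H13Rik and 4933427E13Rik. 4930578N18Rik, between Samsn1 and Nrip1, a nuclear receptor corepressor gene, had 297, 294 and 303 in the model and 211, 223 and 239.98 with AVE0991. The SD was 4.46 in the model and 14.7 with AVE0991. The authors' deposited table gave a statistic of -8.28 with 2.36 degrees of freedom, while edgeR gave a log2 fold change of -0.34 ± 0.17 (adjusted p = 0.229). 4930593A02Rik had 231, 227 and 249 against 178, 144 and 148 (log2 fold change -0.52 ± 0.19, adjusted p = 0.0979, edgeR). 4931419H13Rik, over the cyclin gene Ccna1, had 14.4, 6.26 and 6.47 against 38.3, 32.6 and 27.1 (1.90 ± 0.57, adjusted p = 0.0580, edgeR). In all 3 the groups did not overlap.

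4933427E13Rik and another member, 4933430M04Rik, both lie between Bcl11a, a zinc-finger transcription factor gene, and Fancl. 4933427E13Rik had 11.03, 18.8 and 35.1 in the model and 56.4, 68.4 and 60.8 with AVE0991 (log2 fold change 1.58 ± 0.48, adjusted p = 0.0611, and 0.0182 without model library c, edgeR). 4933430M04Rik had 109, 68.0 and 232 against 230, 193 and 278 (0.84 ± 0.42, adjusted p = 0.217, edgeR), with model library c inside the treated range. Of the 6 edgeR fits with a library left out, 5 did not call 4933430M04Rik, and the other gave an adjusted p of 0.0145. In both RNAs, as in 4930571K23Rik, model library c was the highest of the model libraries.

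Some members varied more within a group than between groups. 4930474N09Rik, between Ttc8, a gene of the cilia-linked BBSome complex, and Foxn3, had 268, 338.7 and 2613 with AVE0991 and 1294, 1258 and 718 in the model. AVE0991 library c alone was 9.75-fold above library a, and the group means nearly coincided (adjusted p = 0.958, edgeR). Without that library the log2 fold change turned from 0.08 to -1.82 with an adjusted p of 0.0215 (edgeR). 4921531C22Rik had 556, 126 and 287 in the model against 389, 379.5 and 441, and 4930586N03Rik had 146, 155 and 88.7 against 167, 111 and 49.95 (adjusted p = 0.605 and 0.806, edgeR). Neither difference exceeded the spread between libraries.

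The number of changed members depended on which libraries were included. With AVE0991 library a, b or c left out, 19, 17 and 19 members passed, where 7.38%, 7.42% and 7.49% of all tested names did. When model library a or model library b was omitted, 11 and 9 members passed, where 5.36% and 4.62% of all tested names did. Without model library c, 57 passed, 36 higher and 21 lower, where 21.8% of all tested names passed. Of the 36 calls, 35 held without model library c and that of 4930426D05Rik did not. In the other 5 fits the share of falls was larger than that of rises, for example 12 lower and 7 higher without AVE0991 library a and 8 lower and 1 higher without model library b. Model library c was the nearest model library to the treated mean for 32 of the 36 changed members, all 17 that fell and 15 of the 19 that rose. The matching share over all names that passed was not worked out, so this is not read as a trait of the members. The 8 members whose edgeR call held with any library left out were all lower with AVE0991: 4933429O19Rik, 4930449E18Rik, 4930513D17Rik, 4930500L23Rik, 4932413F04Rik, 4930455G09Rik, 4930440I19Rik and 4930447F24Rik. None of the 19 rises held in all 6 such fits. Among them, 4930425L21Rik and 4933440M02Rik were lost in 1 each. For all names, the shares by direction in these fits and the share that held in all 6 were not worked out. Whether this difference between falls and rises is particular to the members was therefore not tested.

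**Figure D5:**
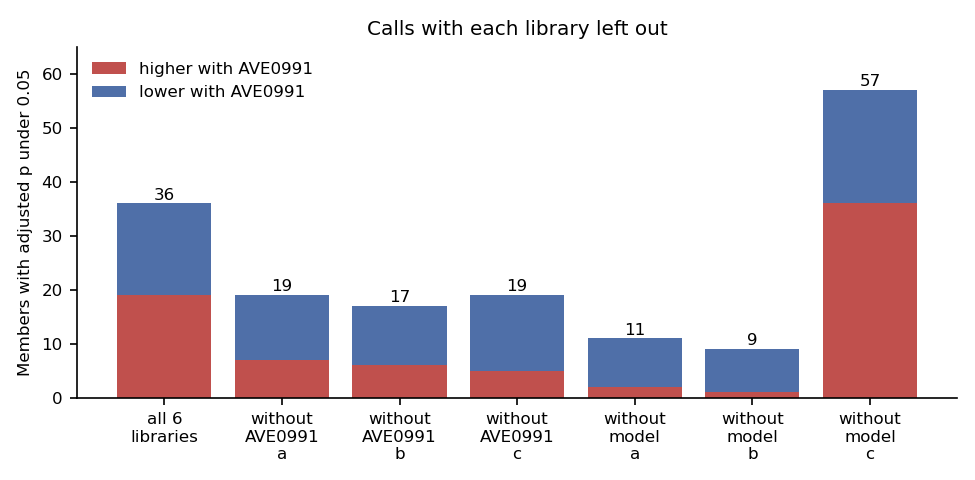
Number of members with an edgeR adjusted p under 0.05 with all 6 libraries and with each library left out, split into higher (red) and lower (blue) with AVE0991. The count runs from 9 without model library b to 57 without model library c.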

How the data were processed

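Total RNA of 3 model and 3 AVE0991 samples was sequenced. Per the labels' protocols, reads were checked with FastQC 0.11.8 and trimmed with fastp 0.19.5; the submitters' processing notes list build mm9, the aligner STAR 2.7.7a and DESeq2 1.10.1. The sources used here name no counting program, annotation or use of strand. Raw counts per identifier were deposited and used here only for depth. Per the file headers, the deposited named table gives a mean signal per group, a statistic, degrees of freedom, a p-value, a fold ratio and its log2. That deposited ratio has 1 added to each mean.

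Whole counts were recovered from the deposited means and variances (relative tolerance 1e-09 on a mean and 1e-07 on a variance): 2241 of 2247 names with a value (99.73%) gave 1 set. The 6 others, none a member, were not tested. Recovered counts returned every deposited statistic within a relative difference of 1.4e-07. The test was edgeR 4.0.16 (R 4.3.3; quasi-likelihood, TMM, filterByExpr) over all names, with Benjamini-Hochberg adjustment; SE is the absolute log2 fold change over the root of F. DESeq2 1.42.0 and limma-voom 3.58.1 were alternatives. The count recovery and the edgeR, DESeq2 and limma-voom fits on all 6 libraries were tested on simulated data. Fits with other scalings or filters, or with a library left out, were not. The simulated counts were drawn without the clustering of low counts seen in the data. RefSeq symbols matched 2270 of 2282 names and were used for class and neighbours only.

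Members and lists were chosen with earlier results of these data known. Named members were the 12 smallest p per direction, the 8 highest means, those nearest each minimum, the 5 smallest deposited p among members not called, protein-coding members reaching 100, up to 12 members without overlap and reaching 100 with the largest changes, and the 5 widest spreads among members reaching 100. Promoter sequences were not analysed here. Of the members this rule names, 2 are not reported here.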

Additional observations from a re-analysis of the deposited data

How the results depend on the processing

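With all 6 libraries, other scalings, filters and tests gave 35 to 49 changed members against 36: 35 with median-of-ratios factors, 42 with library totals, 35 with the authors' library factors, 49 with DESeq2, 43 with limma-voom, 36 with no filter, 35 with a minimum of 10 counts in 3 libraries, 37 with robust dispersion and 39 with counts divided by 4, the last chosen after seeing the data. Between 34 and 36 of the 36 were shared. With library totals 26 were higher and 16 lower, and with DESeq2 31 and 18. Shares over all tested names under these scalings, filters and tests are not given here. These counts and splits are therefore not read as a trait of the members. A 2-fold minimum left 25. Omitting each library in turn gave 9 to 57; fewer libraries enter those fits. The p-values of the authors' deposited table gave 0 members after adjustment, against 51 at an unadjusted p under 0.05 there and 36 in edgeR; the cause was not tested. The numbers reaching 10 and 100 stayed within 1.5 times under each alternative run, from 230 to 283 and from 131 to 191. No called member changed sign. Members not called did. 4930474N09Rik turned to -0.0237 with the authors' library factors, -0.73 with limma-voom and -0.0225 in the authors' deposited table, and with single libraries left out it ran from -1.82 to 0.52. Over the same leave-one-out fits 4930425O10Rik ran from -1.58 to 0.73, and it was -0.85 with limma-voom. The ranges were -0.0262 to 1.027 for 4921531C22Rik, -0.0035 to 0.36 for 4930404H11Rik, -0.20 to 0.35 for 4930519F16Rik and -0.63 to 0.13 for 4930586N03Rik. No paired analysis was possible because the recovered libraries carry no replicate numbers.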
